A study of Mus musculus with 6 samples.

Results

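Lysosomes are acidic organelles in which cells break down proteins, glycans and lipids. Their soluble hydrolases carry a mannose 6-phosphate tag that receptors recognise for delivery, a proton pump keeps the lumen acidic, and membrane proteins shield the limiting membrane and move products and ions across it. The transcription factor TFEB binds E-box elements in the promoters of many lysosomal genes, and in T cells the same compartment degrades surface receptors and borders on the cytotoxic granules. The genes described here are 47 lysosomal enzymes, activators, membrane proteins, channels, sorting factors, pump subunits and the gene of TFEB. They were taken by symbol from a list of known lysosomal genes, and the rule uses no measured value, although earlier results of these data were known when it was written. Of the 47, 44 were measured among 12393 genes, and Arsb, Cd63 and Gnptg were not analysed here.

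Transcripts were read in CD4+CD25- T cells of mice, sorted by flow cytometry, stimulated with plate-bound antibodies to CD3 and CD28, infected with a retrovirus and harvested 5 days later. All groups shared these steps and medium with 10% serum at 7% CO2. The wild-type mock group was WT B6 cells with the empty vector. The deficient mock group was miR-17-92f/f CD4-cre+ B6 cells with the empty vector, in which Cre, driven in T cells, removes the floxed microRNA cluster. The deficient miR-17 group was cells of that same genotype with a vector overexpressing miR-17. The labels give no Cre to the wild-type cells, so the effects of Cre and of losing the cluster cannot be told apart, and they give no age or sex. Each group had 2 arrays, labelled as biological replicates. Nothing further says that they came from separate mice, so the p-values measure the spread between these samples.

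The microRNA carried by the vector is shown as its main mature strand beside miR-20a, another member of the cluster. Both are printed as RefSeq lists them on assembly GRCm38.p6, on the plus strand of chromosome 14 at chr14:115043684-115043706 and chr14:115044183-115044205, with the seed (bases 2 to 8) in capitals.
mmu-miR-17-5p: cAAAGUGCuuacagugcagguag
mmu-miR-20a-5p: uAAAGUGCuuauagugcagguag
The seeds are the same 7 letters. The floxed cluster encodes both, and the vector carries miR-17 alone. Neither the deletion nor the level of miR-17 was checked on these arrays.

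Promoters are shown for a few members with and without matches to an E-box. Ctsd, the aspartic protease cathepsin D, was called lower in both deficient groups than in wild-type cells, and Ctsa, the carboxypeptidase cathepsin A, in the deficient miR-17 group. Scarb2, an integral membrane protein, was called lower without the cluster. Lamp1, a glycosylated protein of the limiting membrane, was not called, and Ctss and Gusb were called higher. Each line gives the first 250 bases of a RefSeq promoter window on GRCm38.p6, 5′ to 3′ on the gene's strand, with the E-box core CACGTG in capitals. The gene start is taken to follow them. Among 22862 genes with 1 window, the RefSeq gene start lay right after these 250 bases in 74.7%, so the distances given are approximate. The positions are chr7:142387828-142388077 (minus strand) for Ctsd, chr2:164833523-164833772 (plus) for Ctsa, chr5:92505658-92505907 (minus) for Scarb2, chr8:13158911-13159160 (plus) for Lamp1, chr3:95526536-95526785 (plus) for Ctss and chr5:130003050-130003299 (minus) for Gusb.
Ctsd: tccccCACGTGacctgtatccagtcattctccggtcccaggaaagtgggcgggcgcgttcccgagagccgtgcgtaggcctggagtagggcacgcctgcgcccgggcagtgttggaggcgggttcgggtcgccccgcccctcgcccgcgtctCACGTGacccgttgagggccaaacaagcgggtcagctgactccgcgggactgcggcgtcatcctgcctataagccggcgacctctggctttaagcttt
Ctsa: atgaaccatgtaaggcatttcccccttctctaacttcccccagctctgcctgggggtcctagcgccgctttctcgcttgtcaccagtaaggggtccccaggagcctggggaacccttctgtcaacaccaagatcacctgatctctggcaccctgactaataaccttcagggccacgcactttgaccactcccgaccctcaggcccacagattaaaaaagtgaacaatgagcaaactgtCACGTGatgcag
Scarb2: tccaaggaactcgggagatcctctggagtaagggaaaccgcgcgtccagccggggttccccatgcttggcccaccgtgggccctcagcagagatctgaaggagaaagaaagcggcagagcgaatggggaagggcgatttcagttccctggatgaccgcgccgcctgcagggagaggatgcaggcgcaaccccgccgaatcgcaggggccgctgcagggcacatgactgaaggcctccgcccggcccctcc
Lamp1: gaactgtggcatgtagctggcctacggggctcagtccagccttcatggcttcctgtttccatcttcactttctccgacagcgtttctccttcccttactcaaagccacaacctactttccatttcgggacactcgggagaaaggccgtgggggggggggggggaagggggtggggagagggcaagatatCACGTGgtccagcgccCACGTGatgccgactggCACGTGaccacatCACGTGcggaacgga
Ctss: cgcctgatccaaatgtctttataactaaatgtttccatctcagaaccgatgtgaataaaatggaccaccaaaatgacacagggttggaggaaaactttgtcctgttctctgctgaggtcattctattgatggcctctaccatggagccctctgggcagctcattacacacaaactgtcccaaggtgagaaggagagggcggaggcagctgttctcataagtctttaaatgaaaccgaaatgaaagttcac
Gusb: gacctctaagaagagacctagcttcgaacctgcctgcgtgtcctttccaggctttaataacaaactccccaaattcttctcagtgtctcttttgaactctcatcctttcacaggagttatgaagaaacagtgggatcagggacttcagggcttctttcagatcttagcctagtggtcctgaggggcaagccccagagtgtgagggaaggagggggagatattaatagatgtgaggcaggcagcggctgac
The stretch before Lamp1 held 4 cores, that before Ctsd 2 and that before Ctsa 1, and those before Scarb2, Ctss and Gusb held 0. Ctsa has 2 windows in the table, and the one with more cores is shown. A match is a description of the letters and not a site shown to be bound.

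RefSeq windows of 300 bases, 250 before and 50 after a start, were found for 37 of the 44 members. The motif TCACGTG, which extends the core by 1 flanking base, was searched on both strands and lay in a window of 13 of the 37 (35.1%), a gene with several windows counting if any held it. It lay in those of 6.10% of the 9887 measured genes with a window and of 4.29% of all 27025 genes with one. The longer palindrome TCACGTGA, which contains the former, was found for 8 members (21.6%), against 1.76% of the measured genes. For the core alone the shares were 37.8% and 10.8%. These shares were not matched on base composition. Among 66 other lysosomal genes with a window, TCACGTG lay in those of 14 (21.2%).

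**Figure D1:**
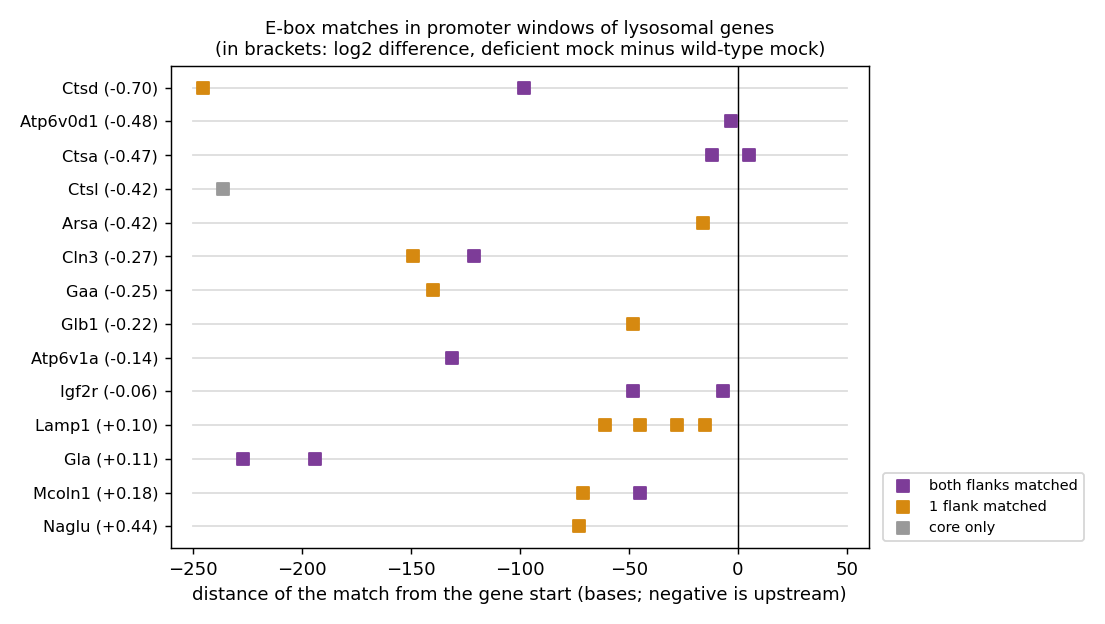
Position of E-box cores in the promoter windows of the 14 members that have one, in bases from the gene start as taken from the window (vertical line). Colour gives the flanking bases, and brackets the log2 difference of deficient mock minus wild-type mock. Lamp1 has 4 cores between 61 and 15 bases before the start, and the genes with matches range in expression difference from -0.70 (Ctsd) to 0.44 (Naglu).

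Members with and without the motif are set side by side as a description. The 13 with TCACGTG had a median log2 difference of -0.22 for deficient mock minus wild-type mock, with 2 called lower and 0 higher. The 24 members whose windows lacked it had a median of -0.30, with 4 lower and 2 higher. Of all genes, 2.79% were called lower and 3.74% higher. Of the 6 lower members with a window, 4 lacked the motif, namely Man2b1, Smpd1, Npc2 and Scarb2. The same held for 24 of all 37 members with a window. Tfeb itself, the regulator, was read at 6.69 and 6.49 log2 units in the wild-type mock replicates, 6.75 and 6.52 in the deficient mock and 6.90 and 6.65 in the deficient miR-17 replicates. The groups overlapped in each comparison, and the differences were 0.05 ± 0.16 for deficient mock against wild-type mock cells (limma adjusted p = 0.908) and 0.14 ± 0.16 when miR-17 was added, which did not pass either. The sign of the former turned when wild-type mock replicate 2 (-0.05) or deficient mock replicate 1 (-0.07) was left out.

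The values are log2 probe set intensities normalised by the authors with RMA. Differences between groups are given as log2 ± SE from a linear model over all genes (limma, n = 2 arrays per group). A gene was called at a Benjamini-Hochberg adjusted p under 0.05 over all 12393 genes. Array medians lay between 5.71 and 5.76, lower quartiles between 3.99 and 4.17, and the arrays of a group correlated at r = 0.994 to 0.995 across probe sets. An exact permutation test of 2 against 2 arrays could not go below p = 0.333. All 9 measured T cell markers were read above the lower quartile, with Cd3e at 10.15, 9.91 and 9.82 as group means. Of 13 macrophage and monocyte markers, 7 had means below 4.17, Lyz2, Cd14 and Itgam among them.

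The comparison of deficient mock with wild-type mock cells asked which lysosomal transcripts differ when the cluster is missing. More members lay lower than higher. The 9 called ones were 3 proteases, 2 glycosidases, 2 lipid genes, 1 membrane protein and 1 pump subunit. Of the 44 members, 7 passed as lower and 2 as higher, so that 20.5% were called, where 6.54% of all genes were. By direction, 2.79% of all genes were called lower and 3.74% higher. The median log2 difference was -0.23 over the members and -0.03 over all genes, and 31 members lay below 0 and 13 above. No member differed 2-fold, the range being -0.74 to 0.77. At an unadjusted p under 0.05 there were 18 lower and 3 higher members (47.7%), where 21.6% of all genes reached it, 8.76% lower and 12.8% higher. The arrays of the compared groups did not overlap for 31 members (70.5%), 23 lower and 8 higher. The same held for 49.9% of all genes, 24.8% lower and 25.1% higher.

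The 9 calls rested on all 4 arrays. Leaving out replicate 1 of the wild-type mock group left Ctss as the 1 called member, among 101 called genes. Leaving out its replicate 2 left Ctsd, Ctss, Npc2 and Scarb2, among 365. With replicate 1 of the deficient mock group left out, Ctsd was called, among 277 genes, and with its replicate 2 left out 0 members were, among 95. The signs of the 9 differences were kept in each of them.

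**Figure D2:**
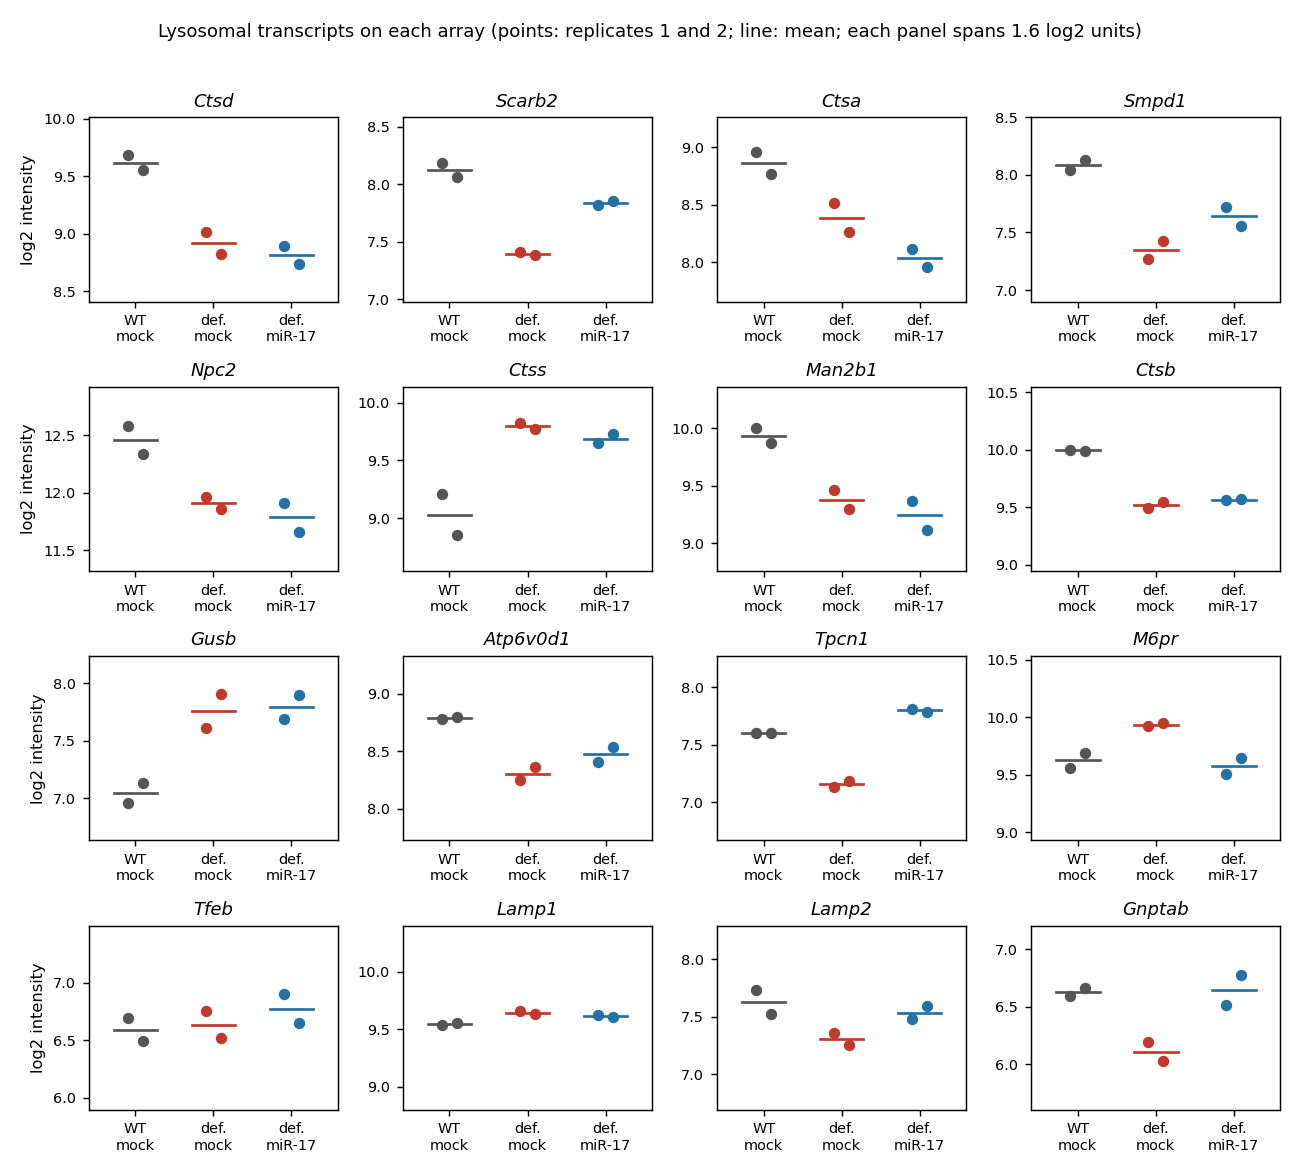
Log2 intensity of 16 lysosomal transcripts on each of the 6 arrays, with points for replicates 1 and 2 and a line at their mean (WT, wild type; def., deficient; mock, empty vector). Ctsd, Man2b1 and Npc2 are lower and Ctss and Gusb higher in both deficient groups than in wild-type cells, while Scarb2, Tpcn1 and Gnptab are lowest and M6pr highest in the deficient mock arrays.

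Of the 9 cathepsins and other proteases measured, 2 passed as lower and 1 as higher, where 2.79% of all genes were called lower and 3.74% higher. Each role holds few genes, so its count is a description only. Ctsd was read at 9.68 and 9.55 in the wild-type mock replicates, 9.01 and 8.82 in the deficient mock and 8.89 and 8.74 in the deficient miR-17 replicates. Both wild-type arrays lay above all 4 deficient ones, and the wild-type level was 1.62 times the deficient mock level (-0.70 ± 0.11, limma adjusted p = 0.0188). Ctsb, the cysteine protease cathepsin B, was read at 10.00 and 9.99, then 9.49 and 9.54, then 9.56 and 9.57 in the same order of groups (-0.48 ± 0.08, limma adjusted p = 0.0205). Its replicates lay close together in every group, and its 3 dimmer probe sets read -0.46, -0.48 and -0.66, although with the mean of the sets the call ended. Ctsa did not pass here (-0.47 ± 0.13, limma adjusted p = 0.0800).

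Ctss, cathepsin S, a cysteine protease known for cutting the invariant chain in antigen-presenting cells, went the other way. It was read at 9.21 and 8.85 in the wild-type mock replicates, 9.83 and 9.77 in the deficient mock and 9.65 and 9.73 in the deficient miR-17 replicates. Both deficient groups lay above the wild-type arrays, and the deficient mock level was 1.70 times the wild-type level (0.77 ± 0.13, limma adjusted p = 0.0197). Among markers of macrophages, B cells and dendritic cells, which are rich in cathepsin S, 0 were called higher, where 3.74% of all genes were. Their median log2 differences were -0.06, -0.13 and -0.16, and single markers ranged from -1.27 for Fcgr3 to 0.58 for Mpeg1. The part of such cells in the Ctss reading was not tested. The summed linear intensity of the 13 macrophage and monocyte markers was 461 to 491 on the wild-type mock arrays, 342 to 353 on the deficient mock arrays and 330 to 359 on the deficient miR-17 arrays. In either comparison with wild-type cells 1 of them, the Fc receptor gene Fcgr3, was called, and it was lower. Without it the other 12 summed to 242 to 272, 253 to 261 and 239 to 244 in the same order of groups. The sums were 159 to 183, 133 to 217 and 129 to 192 for 6 B cell markers, and 713 to 1090, 662 to 708 and 801 to 866 for 8 dendritic cell markers. In a bulk sample, fewer cells of a type and less RNA per cell cannot be told apart.

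The other proteases did not pass. Tpp1, a tripeptidyl peptidase, differed by -0.46 ± 0.15 on its brightest probe set, and a dimmer set read -0.96. Ctsl, cathepsin L, differed by -0.42 ± 0.24. Ctsc, which activates granzymes in cytotoxic cells, differed by 0.23 ± 0.12 and Ctsz, a carboxypeptidase, by 0.07 ± 0.21. Ctsh was read below 4.17 as a mean in every group, where background can set the reading, and the same holds for Galc in every group and for Cd68 in both deficient groups.

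Of the 10 glycosidases and sulfatases, 1 passed as lower and 1 as higher, where 2.79% of all genes were called lower and 3.74% higher. Man2b1, the lysosomal alpha-mannosidase, was read at 10.00 and 9.87 in the wild-type mock replicates, 9.46 and 9.30 in the deficient mock and 9.37 and 9.12 in the deficient miR-17 replicates (-0.55 ± 0.11, limma adjusted p = 0.0330). Gusb, beta-glucuronidase, was read at 6.96 and 7.13, then 7.61 and 7.91, then 7.69 and 7.90, so that both deficient groups lay above the wild-type arrays (0.72 ± 0.15, limma adjusted p = 0.0320). Dimmer probe sets of Man2b1 and Gusb read -0.54 and 0.49. With the mean of the sets the call of Gusb ended, and without an intensity trend that of Man2b1. The enzymes that did not pass ran from Manba, beta-mannosidase (-0.46 ± 0.14), and Arsa, which removes sulfate from sulfatide (-0.42 ± 0.13), to Naglu, an enzyme of heparan sulfate breakdown (0.44 ± 0.20). Glb1, beta-galactosidase, differed by -0.22 ± 0.17, Hexa, a subunit of beta-hexosaminidase, by -0.02 ± 0.10 and Gla, alpha-galactosidase, by 0.11 ± 0.29. Neu1, the sialidase that forms a complex with cathepsin A, differed by -0.35 ± 0.13 and Gaa, which breaks down glycogen, by -0.25 ± 0.12.

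Of the 8 members that degrade or move lipids, 2 were lower, where 2.79% of all genes were called lower, and 6 did not pass. Smpd1, acid sphingomyelinase, was read at 8.04 and 8.13 in the wild-type mock replicates, 7.27 and 7.43 in the deficient mock and 7.72 and 7.56 in the deficient miR-17 replicates. The wild-type level was 1.67 times the deficient mock level (-0.74 ± 0.12, limma adjusted p = 0.0196), and the miR-17 arrays lay between the other groups. Npc2, which hands cholesterol to the membrane protein NPC1, was read at 12.58 and 12.34, then 11.96 and 11.86, then 11.91 and 11.66 (-0.55 ± 0.11, limma adjusted p = 0.0299). Its second probe set read -0.64, and its call ended without an intensity trend. Npc1 differed by -0.16 ± 0.13, Psap, the precursor of the saposin activators, by -0.31 ± 0.13, and Lipa, acid lipase, by 0.26 ± 0.12, none of which passed. Ppt1, which removes palmitate from proteins, differed by -0.27 ± 0.11, Asah1, acid ceramidase, by 0.12 ± 0.13 and Galc, which cleaves galactosylceramide, by -0.02 ± 0.11 on its dim readings.

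Among the 7 membrane proteins, 1 was lower, where 2.79% of all genes were called lower, and 6 did not pass. Scarb2, whose product LIMP-2 carries glucocerebrosidase to lysosomes, was read at 8.18 and 8.06 in the wild-type mock replicates, 7.41 and 7.38 in the deficient mock and 7.82 and 7.85 in the deficient miR-17 replicates. The 3 groups did not overlap, and the wild-type level was 1.65 times the deficient mock level (-0.72 ± 0.11, limma adjusted p = 0.0151). A dimmer probe set read -0.17, so the size of the difference depends on the set, and it was -0.45 with the mean of the sets. Lamp1, at 9.54 and 9.55, then 9.66 and 9.63, then 9.62 and 9.61, differed by 0.10 ± 0.08 (limma adjusted p = 0.553). Lamp2, its relative, was read at 7.73 and 7.52, then 7.36 and 7.25, then 7.48 and 7.59 (-0.32 ± 0.12, limma adjusted p = 0.183). Laptm5, a blood cell protein known to send the T cell receptor to degradation, differed by -0.31 ± 0.10 and Cln3 by -0.27 ± 0.11, and neither passed. Laptm4a (-0.05 ± 0.12) and Cd68, a marker of macrophages (-0.28 ± 0.17), did not pass either.

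The proton pump had 1 lower member of 4, where 2.79% of all genes were called lower. Atp6v0d1, a subunit of its membrane sector, was read at 8.78 and 8.80 in the wild-type mock replicates, 8.25 and 8.36 in the deficient mock and 8.41 and 8.54 in the deficient miR-17 replicates (-0.48 ± 0.10, limma adjusted p = 0.0346), and this call ended without an intensity trend. The catalytic subunit gene Atp6v1a (-0.14 ± 0.18), the accessory gene Atp6ap1 (-0.18 ± 0.11) and the regulatory subunit gene Atp6v1h (0.18 ± 0.14) did not pass. The 2 channels and the 3 sorting genes had 0 calls, where 6.54% of all genes were called. At limma's unadjusted p under 0.05 they had 1 and 2 members, where 21.6% of all genes reached it. Among these was Tpcn1, an ion channel of endosomes and lysosomes, at the edge of the threshold for a call (-0.44 ± 0.11, limma adjusted p = 0.0511). Mcoln1, the calcium channel TRPML1, differed by 0.18 ± 0.21 and Igf2r, the cation-independent mannose 6-phosphate receptor, by -0.06 ± 0.13.

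**Figure D3:**
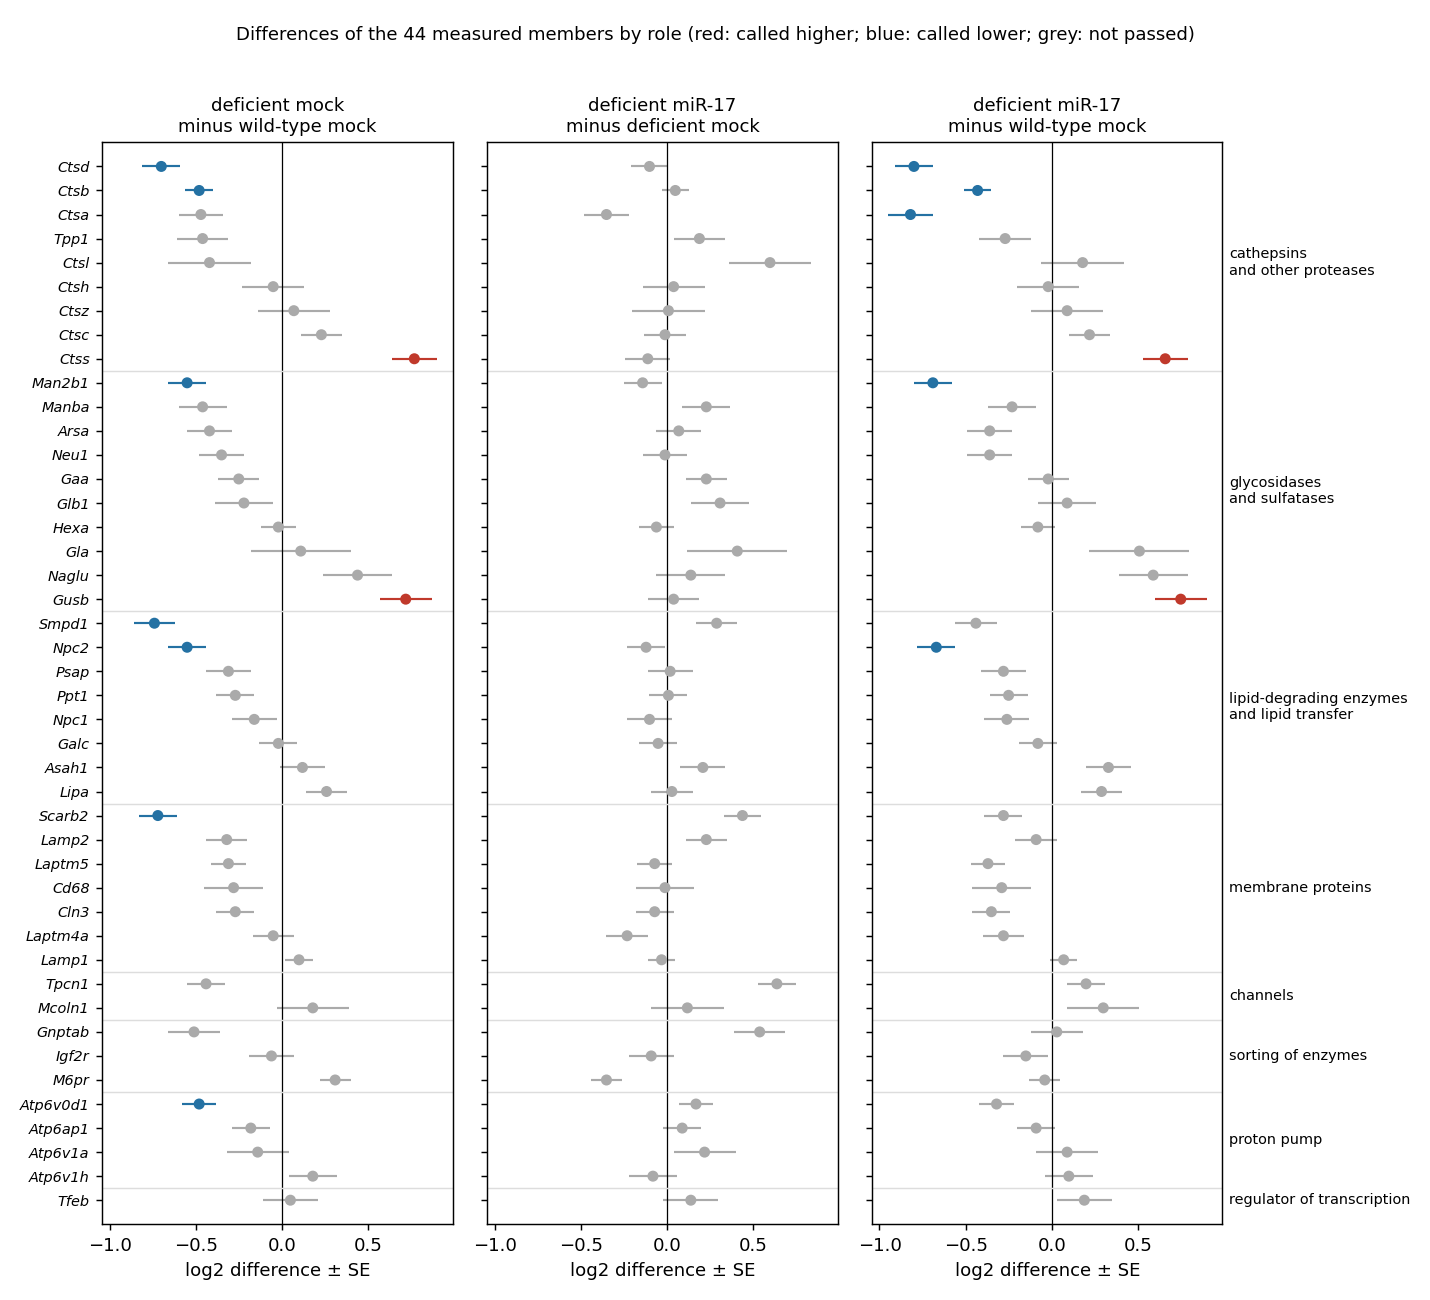
Log2 difference ± SE of each of the 44 measured members in the 3 comparisons, grouped by role and ordered within a role by the first comparison, with red for called higher, blue for called lower and grey for not passed. The first and last comparisons share the wild-type mock arrays, and the middle comparison, which has 0 calls, shares an arm with each of them.

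Adding the miR-17 vector to deficient cells gave 0 called members and 0 called genes of 12393 (0%) with limma. This comparison asked what the microRNA lowers or restores. With a term for the replicate number, 1 member (Tpcn1) was called among 38 genes (0.307%), and what the number marks was not tested. In the fit without that term, 7 members had an unadjusted p under 0.05, 5 higher and 2 lower. They were 15.9% of the members, where 3.93% of all genes reached it, 1.91% higher and 2.02% lower. The median log2 difference of the members was 0.03, that of all genes 0.00, and the members ranged from -0.35 to 0.64. The arrays of the compared groups did not overlap for 19 members (43.2%), 13 of them higher and 6 lower with miR-17. The same held for 3586 of the 12393 genes (28.9%), 1861 higher (15.0% of all genes) and 1725 lower.

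By role, the median difference with miR-17 was 0.01 for the proteases, 0.11 for the glycosidases and sulfatases and 0.02 for the lipid genes. It was -0.03 for the membrane proteins, 0.13 for the pump subunits, 0.38 for the 2 channels and -0.09 for the 3 sorting genes. Tfeb differed by 0.14. Ctsl differed most among the proteases that were higher (0.60 ± 0.24, unadjusted p under 0.05 in limma, not called), at group means of 5.01 to 5.61, below the gene median of 6.21.

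The design text expects targets of miR-17 to be higher without the cluster and lower again with miR-17. M6pr, the cation-dependent mannose 6-phosphate receptor, was the 1 member with that course at an unadjusted p under 0.05 in both steps. It was read at 9.56 and 9.69 in the wild-type mock replicates, 9.92 and 9.95 in the deficient mock and 9.51 and 9.65 in the deficient miR-17 replicates. The deficient mock arrays lay above the other 4, but neither step passed, with 0.31 ± 0.09 without the cluster (limma adjusted p = 0.0972) and -0.35 ± 0.09 with miR-17 (limma adjusted p = 0.915). Its dimmer probe set read 0.43 and -0.43 for the same steps. The share of all genes with that course was not counted.

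The opposite course, lower without the cluster and higher with miR-17, was seen at that level for 4 members, Tpcn1, Scarb2, Gnptab and Smpd1. Because both steps use the deficient mock arrays, a low or high reading there moves both. The share of all genes with this course was not counted either. Tpcn1 was read at 7.60 on each wild-type mock array, 7.13 and 7.19 on the deficient mock arrays and 7.81 and 7.79 on the deficient miR-17 arrays (0.64 ± 0.11 with miR-17, limma adjusted p = 0.428). Its 2 dimmer probe sets read -0.05 and 0.02, so this course belongs to 1 probe set. Gnptab, which encodes subunits of the enzyme that starts the mannose 6-phosphate tag and is named here after its values were seen, was read at 6.59 and 6.66, then 6.19 and 6.03, then 6.52 and 6.78. It differed by -0.51 ± 0.15 without the cluster (limma adjusted p = 0.0827) and by 0.54 ± 0.15 with miR-17 (limma adjusted p = 0.945), and dimmer sets read 0.07 each in the latter step. Scarb2 differed by 0.44 ± 0.11 with miR-17 (limma adjusted p = 0.837), its dimmer set by -0.03, and Smpd1 by 0.29 ± 0.12, which did not pass.

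Ctsa had the same sign in both steps, each at an unadjusted p under 0.05. It was read at 8.96 and 8.77 in the wild-type mock replicates, 8.52 and 8.26 in the deficient mock and 8.12 and 7.96 in the deficient miR-17 replicates, which lay below the other 4. Neither step passed on its own (-0.47 ± 0.13, then -0.35 ± 0.13). This course was not counted over all genes. The deficient miR-17 readings of Ctsd, Ctsb, Ctss, Man2b1, Gusb and Npc2 differed from deficient mock by -0.14 to 0.05, and none of these passed.

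Deficient cells with the miR-17 vector against wild-type mock cells asked what still differs with that vector. Of the 44 members, 5 passed as lower and 2 as higher, or 15.9% called where 6.80% of all genes were, 2.77% lower and 4.03% higher. At an unadjusted p under 0.05 there were 14 lower and 5 higher (43.2%), against 22.8% of all genes, 8.60% lower and 14.2% higher. The groups did not overlap for 30 members (68.2%), 21 lower and 9 higher, against 50.4% of all genes, 24.4% lower and 25.9% higher. The median log2 difference was -0.08 over the members and -0.03 over all genes, and that of the members was -0.16 with quantile normalization repeated and -0.12 without dim genes or without deficient miR-17 replicate 2. Ctsa was the most changed by size (-0.82 ± 0.13, limma adjusted p = 0.0170), with a wild-type level 1.77 times that of the miR-17 cells. The other lower genes were Ctsd (-0.80 ± 0.11), Man2b1 (-0.69 ± 0.11), Npc2 (-0.67 ± 0.11) and Ctsb (-0.43 ± 0.08), and the higher ones Gusb (0.75 ± 0.15) and Ctss (0.66 ± 0.13), with limma adjusted p from 0.0130 to 0.0281. Scarb2 (-0.28 ± 0.11), Smpd1 (-0.44 ± 0.12) and Atp6v0d1 (-0.32 ± 0.10) did not pass in this comparison (limma adjusted p = 0.168, 0.0706 and 0.113). Whether they differ from the genes that kept a call was not tested.

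These calls, too, depended on each array. Ctsb and Gusb lost theirs with the mean of the probe sets, and Ctsb and Ctss without an intensity trend. Leaving out wild-type mock replicate 1 left 1 called member (Ctss), among 105 called genes (0.847%). Leaving out replicate 2 left 4 (Ctsa, Ctsd, Man2b1 and Npc2), among 448 (3.61%). These and Gusb were the 5 called when deficient miR-17 replicate 1 was left out, among 473 (3.82%). Leaving out deficient miR-17 replicate 2 left 0, among 74 called genes (0.597%).

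**Figure D4:**
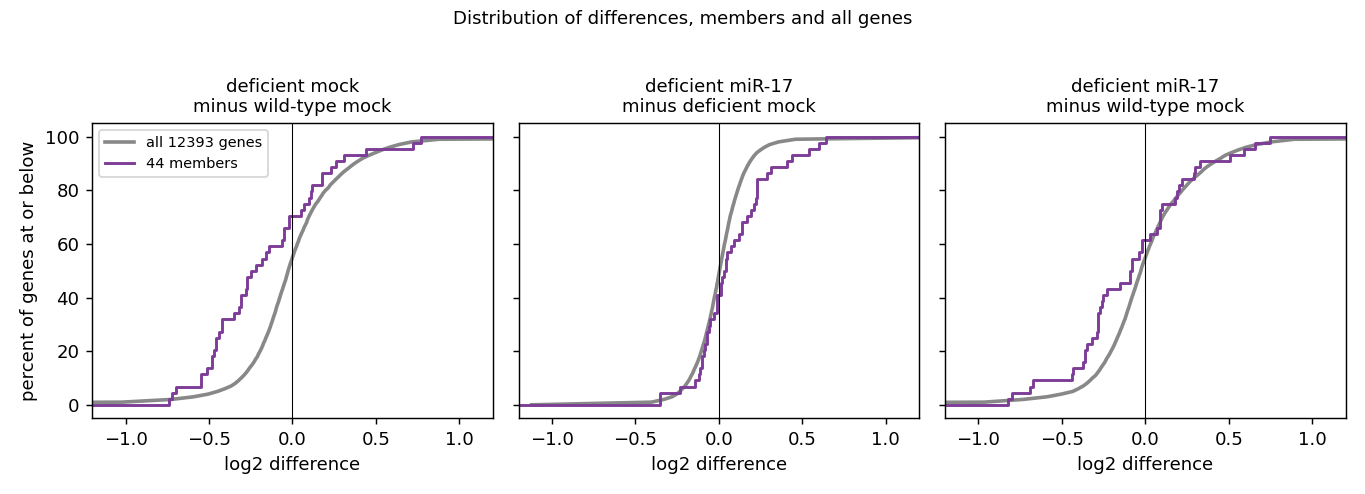
Percent of the 44 members (step line) and of all 12393 genes (smooth line) at or below each log2 difference in the 3 comparisons, drawn between -1.2 and 1.2. The members lie to the left of all genes in the first comparison (medians -0.23 and -0.03), and less so in the last (-0.08 and -0.03).

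Poly-A control transcripts, which are added to the samples before labelling, moved with the genotype as well. They read lower on the deficient mock than on the wild-type mock arrays in 24 of 24 probe sets, by a mean of -0.57, and by -0.54 on the deficient miR-17 arrays. The hybridization controls read lower in 18 of 18 probe sets in each comparison, by -0.17 and -0.29 against wild-type mock arrays and by -0.12 for deficient miR-17 against deficient mock, where the poly-A controls differed by 0.03. Summed over 9 T cell markers, linear intensity was 16600 to 17000 on the wild-type mock arrays, 13600 to 14800 on the deficient mock arrays and 13300 to 14100 on the deficient miR-17 arrays. Of these markers 1, Thy1, was called lower in both comparisons with wild-type cells. The part of the control transcripts and of the T cell markers in the lysosomal readings was not tested.

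Of 108 further lysosomal genes listed from general knowledge, 85 were measured. In deficient mock against wild-type mock cells 4 passed as lower and 0 as higher (4.71% called, against 6.54% of all genes), and the median was -0.04. Of the 4 lower genes 3 were among the 20 hydrolases and activators, whose median was -0.12. Lgmn, the asparaginyl endopeptidase legumain, was read at 5.33 and 5.25 in the wild-type mock replicates, 3.85 and 3.98 in the deficient mock and 4.06 and 4.05 in the deficient miR-17 replicates (-1.38 ± 0.13, limma adjusted p = 0.00344). The deficient readings lie at or below the arrays' lower quartiles, so the size is one of readings and not of transcripts, but the call was made in all 4 fits that left out an array. Gm2a, the activator of GM2 ganglioside breakdown, was read at 9.92 and 10.22, then 9.34 and 9.16, then 9.60 and 9.50 (-0.82 ± 0.12, limma adjusted p = 0.0160). Ctsw, a cathepsin of cytotoxic lymphocytes, was read at 9.82 and 9.18, then 8.15 and 7.20, then 8.17 and 7.52 (-1.83 ± 0.35, limma adjusted p = 0.0270), with the arrays of each group well apart. Flcn, folliculin, which acts with the Rag GTPases on mTORC1 and on TFEB, was lower as well (-0.86 ± 0.19, limma adjusted p = 0.0397), on a probe set of a kind that can match related sequences. Its call ended without an intensity trend, with quantile normalization repeated and with the mean of the probe sets (-0.45). In the 4 fits that left out a compared array, Gm2a was called in 3, Ctsw in 2 and Flcn in 1, and without deficient mock replicate 2 Lgmn was the 1 called gene of the 85.

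None of the 14 further pump subunits, 18 membrane proteins and 22 sorting genes was called in that comparison, where 6.54% of all genes were. At limma's unadjusted p under 0.05 these groups had 2, 2 and 3 genes (14.3%, 11.1% and 13.6%, against 21.6% of all genes). With miR-17 added to deficient cells 0 of the 85 were called, as were 0 of all genes. An unadjusted p under 0.05 was reached by 3 (3.53%, against 3.93% of all genes). Deficient miR-17 against wild-type mock cells had 5 lower and 0 higher (5.88% called, against 6.80%), namely Lgmn (-1.24 ± 0.13), Acp5, an acid phosphatase (-0.82 ± 0.14), Ctsw (-1.66 ± 0.35), Gm2a (-0.53 ± 0.12) and the pump subunit gene Atp6v1d (-0.51 ± 0.12), with limma adjusted p from 0.00620 to 0.0470. Of these, Gm2a and Atp6v1d lost the call without an intensity trend, with the mean of the probe sets and in a fit of only the compared groups, and Ctsw lost it without a trend. In the 4 fits that left out a compared array, Lgmn was called in 4, Acp5, Ctsw and Atp6v1d in 1 each and Gm2a in 0.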

How the data were processed

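The deposited values are log2 probe set intensities. The submitters' processing notes name RMA, without a version. RMA subtracts background, quantile-normalises the arrays and summarises each set. The log base was taken from that convention and the range of values. Quantile normalization hides a shift common to most genes.

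Of 22690 probe sets, 20380 had 1 gene symbol in the platform annotation. Each gene was represented by its brightest set, by the mean of the 6 arrays. Of the members, 22 had several sets, and 5 rested on sets of a kind that can match related sequences (Gaa, Laptm5, Lipa, Mcoln1 and Atp6ap1). All arrays entered 1 model (limma 3.58.1 under R 4.3.3, with lmFit, contrasts.fit and a trended eBayes), with 3 residual and 4.69 prior degrees of freedom. P-values were adjusted by Benjamini-Hochberg within a comparison. The fit was run on simulated arrays with independent noise, which does not test the calls made here. Figures were drawn with matplotlib 3.10.9.

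The members, the further lysosomal genes and the tests were chosen with earlier results of these data known. Values on every array are given for members called in any comparison (up to 16), the member of each role with the smallest p, and Lamp1, Lamp2, Ctsd and Tfeb. Up to 5 called further lysosomal genes per comparison are named. Other members are examples named after their values were seen, and the motifs were searched after the expression values were known. Alternatives were another variance model, the mean of probe sets, a filter on dim genes, other scalings, fewer groups, a term for the replicate number and leaving out each array. Promoter and microRNA sequences are from RefSeq (GRCm38.p6), with windows for 37 of 44 members. The number of arrays limits the precision.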

Additional observations from a re-analysis of the deposited data

How the results depend on the processing

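With a term for the replicate number (replicate block) called members numbered 20 of 44 without the cluster (45.5%, against 22.0% of all genes, 2723), 1 with miR-17 returned (Tpcn1, among 38 genes, 0.307%) and 19 in miR-17 cells against wild-type cells (43.2%, against 24.1%, 2983 genes). Further lysosomal genes numbered 15 (17.6%) and 18 (21.2%) in the comparisons with wild-type cells, below the shares of all genes. The labels do not say that a number marks a shared batch. Differences between replicates 1 and 2 correlated across probe sets at 0.398 to 0.579 between groups. The main fit has no term for the number, and what the number marks was not tested.

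Leaving out 1 array gave 0 to 8, 0 to 0 and 0 to 7 called members in the 3 comparisons, 1 to 4, 0 to 0 and 1 to 4 further genes, and member medians of -0.25 to -0.18, 0.01 to 0.05 and -0.12 to -0.08. The member median in deficient mock against wild-type mock cells was -0.19 with the mean of probe sets, -0.26 without dim genes (6 members left out) and -0.22 with arrays centred. For miR-17 against deficient mock it was 0.05 with the mean of probe sets, 0.02 with quantile normalization repeated and 0.00 with arrays centred. For miR-17 against wild-type mock it was -0.12 without dim genes, -0.16 with quantile normalization repeated and -0.10 with arrays centred, and further genes called there numbered 2 without an intensity trend and 8 with arrays centred. Each of these medians moved by more than the spread between replicates (0.01), and the causes were not tested.

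Of 438 values of single genes under settings that kept all arrays, 396 kept direction and side of the threshold, 19 lost a call, 22 gained one and 1 turned sign, Tpcn1 in miR-17 against wild-type mock cells with the mean of probe sets (-0.02). Of 378 values with 1 array left out, 74 lost a call and 11 turned sign, none of the latter a called difference. Those that turned ran, over these fits, from -0.07 to 0.16 for Tfeb without the cluster, and with miR-17 returned from -0.11 to 0.19 for Gusb, -0.31 to 0.64 for Ctsw, -0.12 to 0.26 for Flcn and -0.24 to 0.00 for Npc2. For miR-17 against wild-type mock cells they ran from -0.20 to 0.01 for Lamp2 and -0.12 to 0.03 for M6pr.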
